A study of Mus musculus with 8 samples.

Results

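The IFIT, OAS and MX genes encode antiviral effector proteins that type I interferon induces in most cells, and 10 of them were followed here: Ifit1, Ifit2, Ifit3, Oas1a, Oas2, Oas3, Oasl1, Oasl2, Mx1 and Mx2. They were taken by gene symbol from the 22520 genes of the deposited expression table, and the choice of families was made with earlier results of these data known. In the 4 LRP1 KO libraries, Ifit1, Ifit3, Oas1a, Oas2 and Oas3 were between 2.65 and 5.12 times as high as in the 4 WT libraries. Ifit2, Oasl1 and Oasl2 were between 1.22 and 1.65 times as high and did not pass the test, and Mx1 and Mx2 were below the filter on low values.

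Messenger RNA was sequenced from microvascular cells of C57BL/6 animals on postnatal day 14, which had been picked up on beads carrying an antibody to PECAM-1, an adhesion molecule of endothelial cells. By their labels, all libraries are mixtures of cells of heart, liver and lung, whereas the study treats liver cells apart from those of heart and lung, so which organs a library holds, and what the spread within a group measures, is uncertain. The comparison asks how gene expression differs when endothelial cells lack LRP1, a large endocytic receptor related to the LDL receptor. LRP1 KO animals were LRP1 f/f; Cdh5-CreER+/- and WT animals were their LRP1 f/f; Cdh5-CreER-/- littermates, so both groups carried the floxed Lrp1 alleles and the WT group lacked the CreER transgene. CreER is a recombinase that acts only after an estrogen receptor ligand is given. The Cdh5 promoter drives it in endothelial cells, so a deletion in any other cell of the isolate is not part of the model. Which cells of the isolate lost Lrp1 was not tested, and the Lrp1 values are given with the library checks. Whether a library is 1 animal or a pool is not given in the sources used here, and p-values then measure the spread between these libraries, which may be technical.

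The innate antiviral programme starts when sensors of foreign nucleic acid induce interferons, which leave the cell and bind the IFNAR1 and IFNAR2 receptor chains. The receptor-bound kinases JAK1 and TYK2 then activate a transcription factor complex that includes STAT2 and IRF9 and binds the interferon-stimulated response element, a DNA element with paired GAAA cores, in front of the effector genes. IFIT proteins bind viral RNA that lacks the cap structure of the cell's own messages, OAS enzymes make short 2'-5' oligoadenylates that lead to RNA decay, and MX proteins are dynamin-like GTPases that trap viral nucleocapsids. Mx1 is defective in most laboratory strains, C57BL/6 among them.

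The promoters of the members are shown because the element through which the programme acts can be read in them. RefSeq promoter windows on GRCm38.p6, from 250 bases before the annotated start to 50 after it, were matched for 7 of the 10 members, and Oas2, Mx1 and Mx2 had no entry. Each window was searched on both strands for the core of the element, GAAA followed by any 2 bases and GAAA again, which reads TTTC, any 2 bases, TTTC on the other strand. The lines below give, 5′ to 3′ on the strand of the gene, a stretch around the matches, or the last 120 bases before the start where there was none, and capitals mark the matches.
Ifit1, chr19:34640745-34640853, plus strand: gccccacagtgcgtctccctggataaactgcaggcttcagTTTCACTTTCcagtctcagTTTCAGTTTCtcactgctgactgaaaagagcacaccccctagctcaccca
Ifit3, chr19:34583333-34583456, plus strand: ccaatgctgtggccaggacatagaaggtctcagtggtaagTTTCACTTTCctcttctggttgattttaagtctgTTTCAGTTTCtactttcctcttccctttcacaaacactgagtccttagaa
Oas1a, chr5:120907526-120907585, minus strand: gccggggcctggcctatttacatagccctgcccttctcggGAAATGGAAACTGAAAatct
Oas3, chr5:120777685-120777774, minus strand: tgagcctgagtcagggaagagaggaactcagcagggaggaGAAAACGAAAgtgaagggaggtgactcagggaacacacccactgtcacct
Ifit2, chr19:34550574-34550693, plus strand: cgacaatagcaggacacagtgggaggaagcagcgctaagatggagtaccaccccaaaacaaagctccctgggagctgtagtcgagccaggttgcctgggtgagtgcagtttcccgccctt
Oasl1, chr5:114923120-114923239, plus strand: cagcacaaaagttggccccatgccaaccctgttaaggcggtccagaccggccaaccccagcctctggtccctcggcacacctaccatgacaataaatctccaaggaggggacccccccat
Oasl2, chr5:114896814-114896933, plus strand: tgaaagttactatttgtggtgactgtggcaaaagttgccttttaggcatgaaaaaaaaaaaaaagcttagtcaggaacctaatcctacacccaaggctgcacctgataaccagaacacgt

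Matches stood in the windows of Ifit1, Ifit3, Oas1a and Oas3 and in none of the windows of Ifit2 (which has 2 annotated starts, the first being shown), Oasl1 and Oasl2. Ifit1 held 2 on the opposite strand, reading TTTCACTTTC at -104 to -95 and TTTCAGTTTC at -85 to -76 from the start. Ifit3 held the same 2 decamers on the same strand, at -156 to -147 and at -122 to -113. In Oas1a, GAAATGGAAA at -20 to -11 and GAAACTGAAA at -14 to -5 overlapped, so the capitals run together. Oas3 held 1, GAAAACGAAA, at -75 to -66. Over all promoter windows, 3.44% held a match (1131 of 32851), and over genes 3.99% did (1079 of 27025). A match is a description of letters, not a bound site, and its absence says only that these letters were not in that window.

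**Figure D1:**
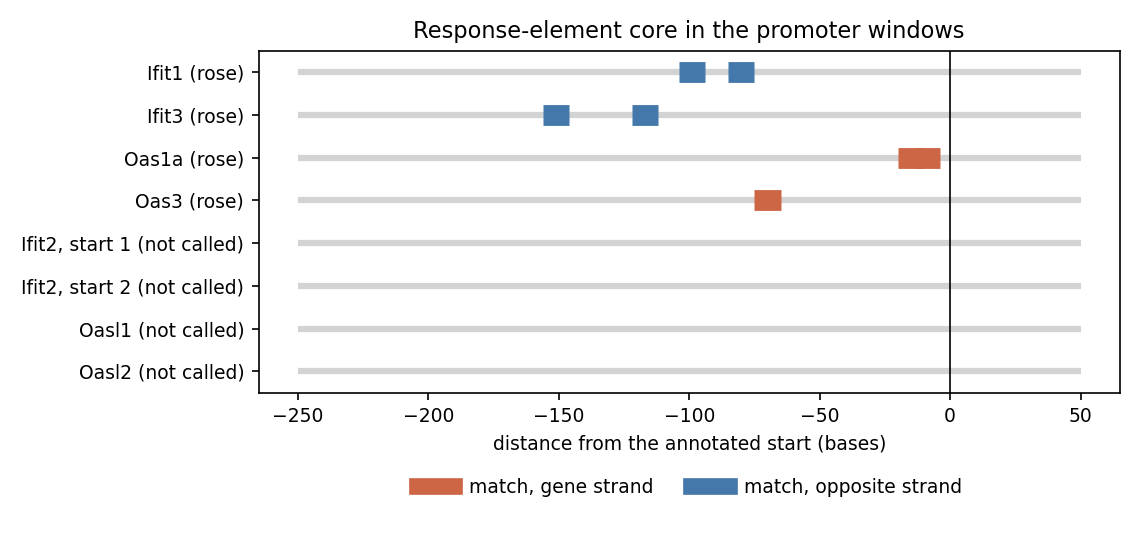
Position of matches to the core of the response element in the promoter windows of the 7 members with a RefSeq entry. The x axis is the distance from the annotated start in bases, grey bars are the windows, and coloured blocks are matches on the strand of the gene or on the opposite strand. "Rose" marks an adjusted p under 0.05. The 4 members with a match were called higher, but Oas3 passed the filter on low values only through LRP1 KO, so that it had to differ. The 3 without a match were not called, and Oas2, which was called, had no window. The relatives Oas1c and Ifit1bl1 held matches and were not called.

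Values are taken as FPKM, an inferred unit, that is, fragments divided by transcript length and by the fragments mapped in the library. The columns had almost the same distribution, as after quantile normalization, so levels may be set side by side between genes only roughly. Fold changes are differences of log2(FPKM + 1) from limma, LRP1 KO minus WT, with the standard error (SE) and a Benjamini-Hochberg adjusted p over the 11389 genes that reached 1 FPKM in at least 4 libraries. The added 1 makes these smaller than the ratio of the FPKM means for low genes. Of the 10 members, 8 passed that filter, and Oas3 passed it only through the LRP1 KO libraries, so that it had to differ. Members were called higher in 5 cases and lower in 0, where 6.27% of all genes tested were called higher and 7.31% lower. Macrophage markers were also higher in LRP1 KO, and with their score as a covariate 0 members were called (5 at an unadjusted p under 0.05), as detailed with the composition of the libraries. All 5 also rose at least 2-fold on that scale, as 1.12% of genes tested did.

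**Figure D2:**
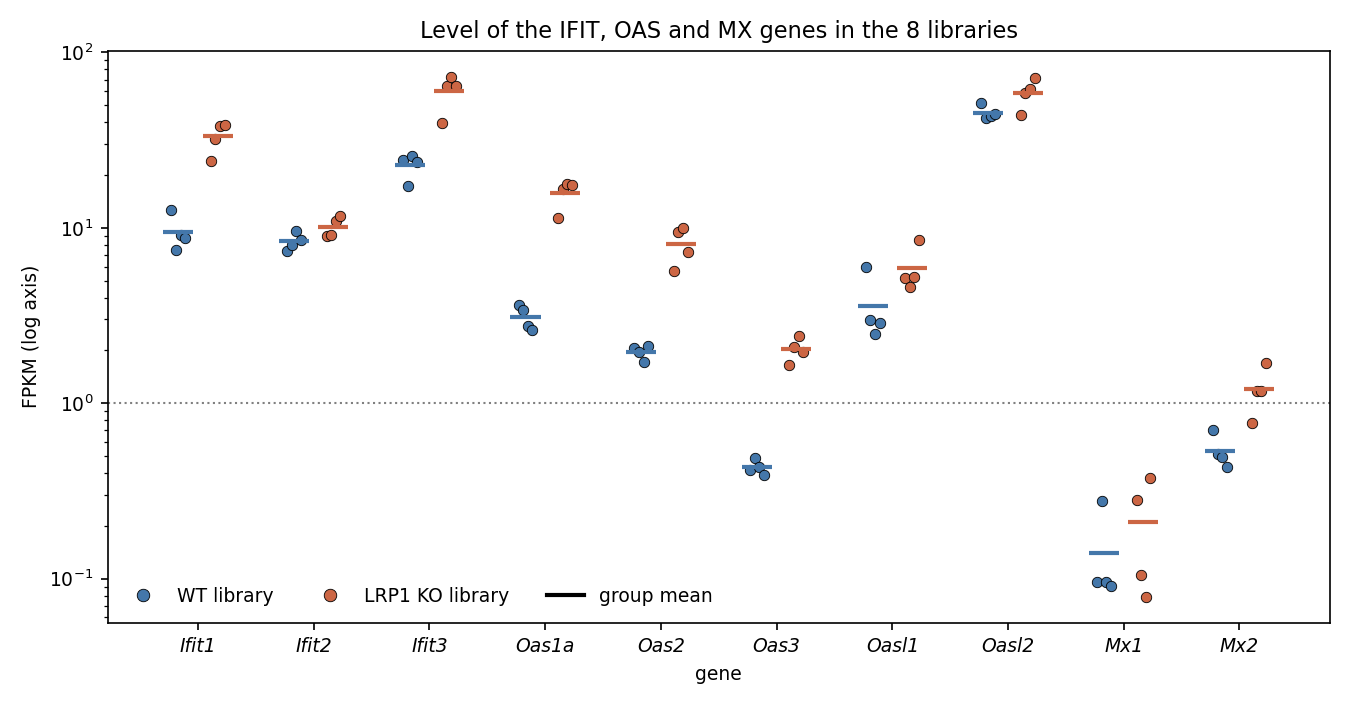
Level of the 10 members in the 8 libraries, as FPKM on a log axis. Each point is 1 library, short bars are group means, and the dotted line is at 1 FPKM. The points of the groups are apart for Ifit1, Ifit3, Oas1a, Oas2, Oas3 and Mx2 and mixed for the other 4 genes.

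Among the IFIT genes, Ifit1 and Ifit3 rose and Ifit2 did not pass the test. Ifit1, which binds RNA whose cap lacks 2'-O methylation, read 12.7, 7.45, 9.08 and 8.80 FPKM for WT (libraries 1 to 4, the order used throughout) but 23.9, 32.2, 38.0 and 38.5 FPKM for LRP1 KO. The lowest LRP1 KO library was well clear of the highest WT library. Means were 9.50 ± 2.23 and 33.2 ± 6.79 FPKM (SD, n = 4 each), and the log2 fold change was 1.70 (SE 0.18, 95% interval 1.30 to 2.10, limma adjusted p = 0.000952). Ifit3, whose human counterpart stabilises the binding of IFIT1 to RNA, was the more abundant, with WT values of 24.4, 17.4, 25.5 and 23.7 FPKM and LRP1 KO values of 39.8, 64.0, 72.6 and 64.6 FPKM. LRP1 KO library 1 lay nearest to the WT libraries and still above all of them. The log2 fold change of Ifit3 was 1.35 (SE 0.18, limma adjusted p = 0.00362) between means of 22.7 ± 3.62 and 60.2 ± 14.2 FPKM.

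Ifit2, which binds AU-rich double-stranded RNA, had the smallest fold change of the 3 IFIT members, with WT values of 7.34, 8.0, 9.62 and 8.48 FPKM beside LRP1 KO values of 8.98, 9.08, 11 and 11.6 FPKM. The groups overlapped, since WT library 3 was above LRP1 KO libraries 1 and 2. Its log2 fold change of 0.25 (SE 0.10, 95% interval 0.02 to 0.49) gave a limma adjusted p of 0.125. In WT libraries Ifit1 and Ifit2 had overlapping ranges, and in LRP1 KO libraries all values of Ifit1 were above all values of Ifit2.

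The IFIT genes lie side by side on chromosome 19 in mm10, in the order Ifit2 (chr19:34550694-34576419), Ifit3 (chr19:34583531-34588731) and Ifit1 (chr19:34640871-34650009), all on the plus strand. Ifit3 has a near copy, Ifit3b, listed in the table as I830012O16Rik: 51.2% of the 50-base stretches of the longest Ifit3 transcript also occur in Ifit3b. The split of reads between them is therefore uncertain. Ifit3b rose from 5.48 ± 1.48 to 13.4 ± 3.06 FPKM, a log2 fold change of 1.15 (SE 0.20, limma adjusted p = 0.00929), but shared reads could raise both. Ifit1 shared 7.13% of its stretches with other genes and Ifit2 shared none.

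Oas1a, Oas2 and Oas3 rose, Oas3 having passed the filter only through the LRP1 KO libraries. Oas1a, the small synthetase, had WT values of 3.64, 3.38, 2.77 and 2.60 FPKM and LRP1 KO values of 11.4, 16.6, 17.8 and 17.6 FPKM. The groups were far apart, with LRP1 KO library 1 again the lowest of its group. Oas1a had the largest log2 fold change of the members tested, 2.03 (SE 0.14, 95% interval 1.71 to 2.35, limma adjusted p = 0.000357), on means of 3.10 ± 0.492 and 15.9 ± 2.99 FPKM.

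Oas2, the middle-sized synthetase with a doubled catalytic unit, read 2.07, 1.95, 1.72 and 2.11 FPKM for WT against 5.69, 9.42, 9.99 and 7.27 FPKM for LRP1 KO. The WT libraries were close together and the LRP1 KO libraries were spread more widely above them. The log2 fold change was 1.59 (SE 0.15, limma adjusted p = 0.000600), with means of 1.96 ± 0.174 and 8.09 ± 1.98 FPKM. Oas3, the long synthetase that responds to long double-stranded RNA, was low, reading 0.416, 0.485, 0.433 and 0.392 FPKM for WT against 1.65, 2.10, 2.42 and 1.97 FPKM for LRP1 KO. All WT values were under 1 FPKM and all LRP1 KO values above it. Its log2 fold change of 1.08 (SE 0.09, limma adjusted p = 0.000479) became 1.997 when 0.1 FPKM was added in place of 1, and the ratio of its means was 4.72.

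Oas2 (chr5:120730333-120749853), Oas3 (chr5:120753098-120777661) and Oas1a (chr5:120896256-120907521) share a cluster on the minus strand of chromosome 5. Oas1a shares 57.6% of its 50-base stretches with its neighbour Oas1g, so the division of reads between these copies is uncertain, while Oas2 shared none. Oas1g rose from 1.07 ± 0.388 to 6.35 ± 1.60 FPKM (log2 fold change 1.82, SE 0.19, limma adjusted p = 0.000976). Oas1b, which GENCODE types as a polymorphic pseudogene, rose by less, with a log2 fold change of 0.55 (SE 0.10, limma adjusted p = 0.0102), a call lost with the endothelial score (adjusted p = 0.0776) or the macrophage score (adjusted p = 0.212) of the library as a covariate. Oas1g, Ifit3b and Oas1b were the family relatives called higher. Oas1g and Ifit3b also lost their calls with the macrophage score as a covariate (limma adjusted p = 0.0915 and 0.133).

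**Figure D3:**
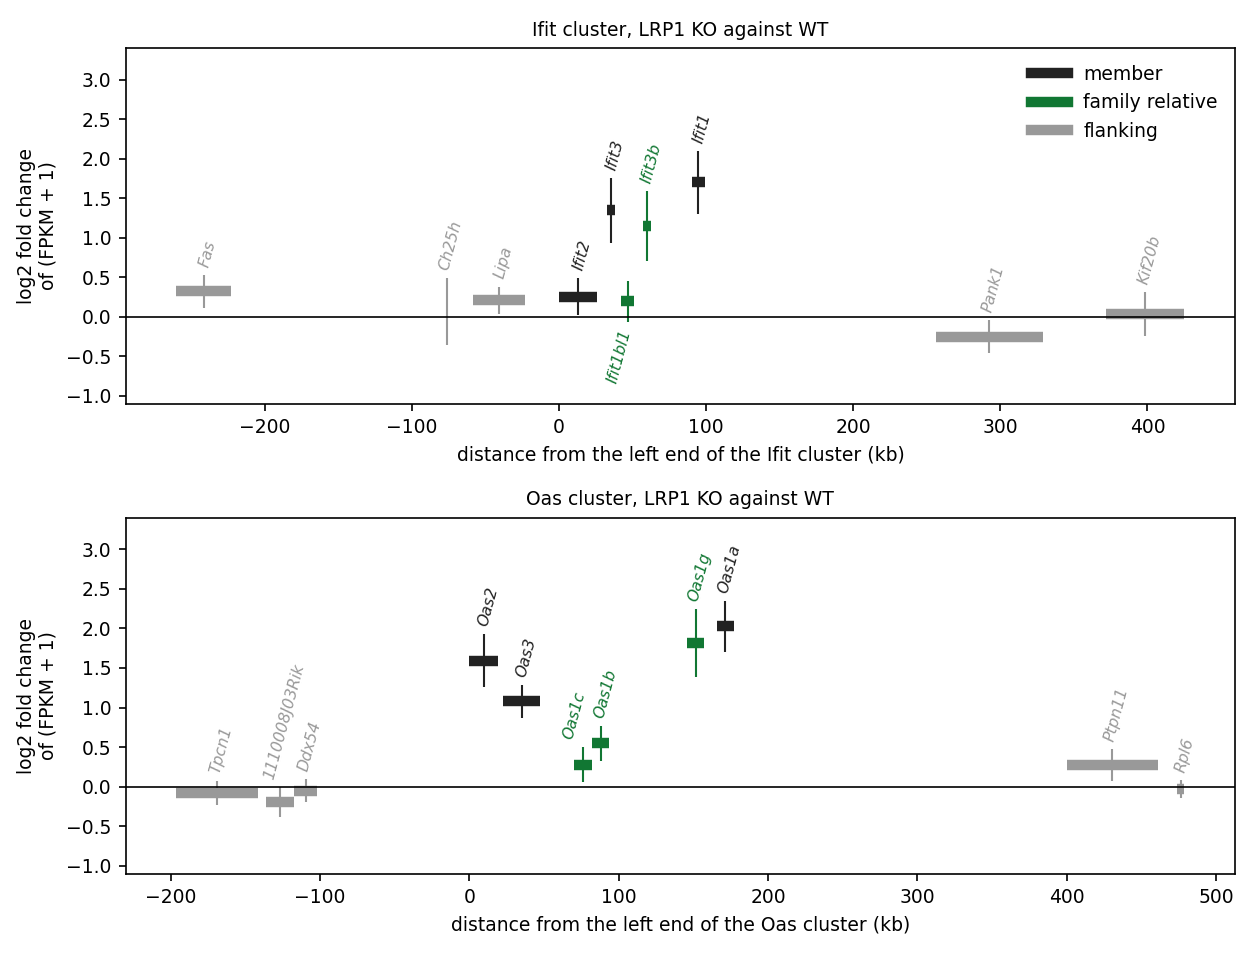
Log2 fold change of (FPKM + 1), LRP1 KO against WT, along the Ifit cluster (top) and the Oas cluster (bottom). The x axis is the distance from the left end of the cluster in kb, thick bars span gene bodies, and thin lines are 95% intervals; only tested genes are drawn. Members and relatives lie between 0.20 and 2.03, and the flanking genes drawn reach 0.32, for Fas.

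The OAS-like genes, relatives of the synthetases, did not pass the test. Oasl1, which lacks enzyme activity and represses translation of the Irf7 message, read 5.95, 2.99, 2.48 and 2.86 FPKM for WT beside 5.19, 4.60, 5.21 and 8.50 FPKM for LRP1 KO. WT library 1 lay above 3 of the LRP1 KO libraries, so the groups overlapped. The log2 fold change of 0.61 (SE 0.23, 95% interval 0.09 to 1.14) had a limma adjusted p of 0.101, and Oasl1 was called in 1 of 8 fits that left out a library. Without WT library 1 it was 0.83 with a limma adjusted p of 0.0325, and without LRP1 KO library 4 it was 0.45 with a limma adjusted p of 0.156.

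Oasl2, which is enzymatically active in the mouse, was the most abundant member of the WT group, at 51.2, 42.4, 43.4 and 44.5 FPKM, against 43.8, 58.5, 62.1 and 71.7 FPKM for LRP1 KO. LRP1 KO library 1 fell inside the WT range and the other LRP1 KO libraries were above it. The log2 fold change was 0.35 (SE 0.13, 95% interval 0.05 to 0.65, limma adjusted p = 0.10), and Oasl2 too was called in 1 of 8 such fits. Without LRP1 KO library 1 it was 0.49 with a limma adjusted p of 0.0244, and without LRP1 KO library 4 it was 0.26 with a limma adjusted p of 0.149. These 2 genes form their own cluster on chromosome 5, Oasl2 at chr5:114896936-114912234 and Oasl1 at chr5:114923240-114937915, and neither shares a 50-base stretch with another gene.

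The MX genes did not reach the filter. Mx1 read 0.0956, 0.277, 0.0962 and 0.0910 FPKM for WT beside 0.281, 0.105, 0.0787 and 0.374 FPKM for LRP1 KO. The groups were mixed, with p = 0.514 by exact permutation (two-sided, n = 4 each). Mx2, annotated as a polymorphic pseudogene, read 0.702, 0.513, 0.493 and 0.434 FPKM for WT against 0.772, 1.17, 1.17 and 1.70 FPKM for LRP1 KO. Here the groups did not overlap, although LRP1 KO library 1 was only just above WT library 1. The ratio of the Mx2 means was 2.25 and the exact permutation p was 0.0286, the smallest that 4 against 4 libraries allow. With no filter on low values its log2 fold change was 0.51 (SE 0.12, limma adjusted p = 0.0518). Both lie on chromosome 16, Mx1 at chr16:97447035-97462907 and Mx2 at chr16:97535308-97560900, and they share 4.77% of the stretches of Mx1 and 6.55% of those of Mx2.

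The groups thus did not overlap for 6 members, the 5 called ones and Mx2, where 8.84% of all genes tested were higher without overlap. Oas3 passed the filter only through the LRP1 KO libraries, so its separation was fixed by the filter. Mx2 was not among the genes tested, so that share does not apply to it. The order of the levels also changed. In WT it ran from Oasl2 through Ifit3, Ifit1, Ifit2, Oasl1, Oas1a, Oas2, Mx2 and Oas3 to Mx1, and the neighbours whose ranges overlapped were Ifit1 with Ifit2, Oasl1 with Oas1a, and Mx2 with Oas3. In LRP1 KO it ran from Ifit3 through Oasl2, Ifit1, Oas1a, Ifit2, Oas2, Oasl1, Oas3 and Mx2 to Mx1. There Ifit3 overlapped with Oasl2, Oas1a with Ifit2, Ifit2 with Oas2, Oas2 with Oasl1, and Oas3 with Mx2. Oas1a rose from below Oasl1 to a mean above Ifit2.

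The LRP1 KO libraries differed in the members. Library 1 was the lowest of the group for 8 of 10 members, library 4 was the highest for 6 and library 3 for the other 4. The mean of the 8 tested members, each centred on its own mean log2(FPKM + 1) over the 8 libraries, was -0.38, -0.66, -0.60 and -0.60 in WT libraries 1 to 4. In LRP1 KO it was 0.23, 0.57, 0.72 and 0.73. WT library 1, the highest of its group for 5 members, was still below LRP1 KO library 1. Ranked by likeness to this profile over the 8 libraries, the nearest of 11310 other genes were Gbp3, Ifit3b, Trim30a, Ifih1 and Rtp4, with root mean square differences of 0.12, 0.15, 0.16, 0.17 and 0.17 on the log2 scale.

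**Figure D4:**
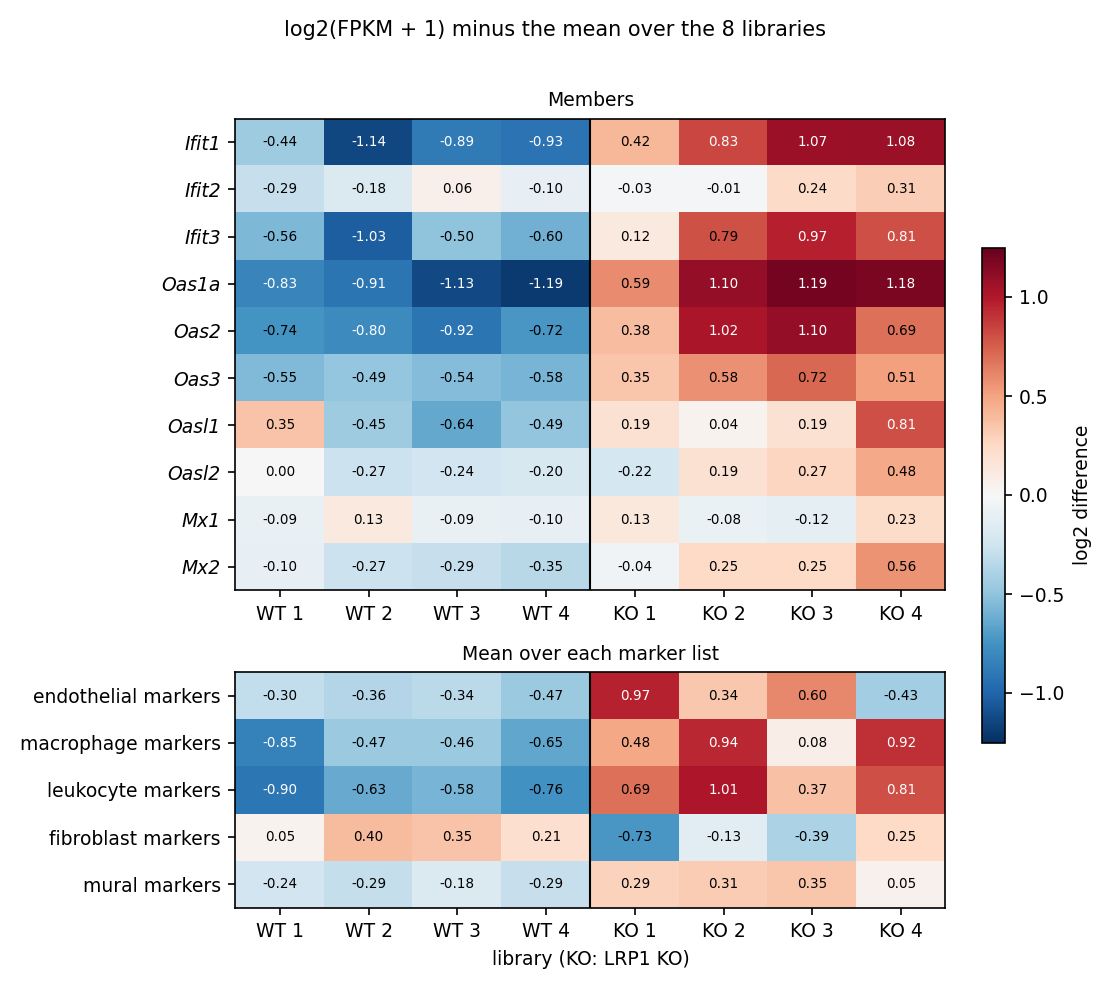
Differences of log2(FPKM + 1) from the mean over the 8 libraries, for the 10 members (top) and for the mean over each marker list (bottom). Columns are libraries, red is above and blue below the mean, and the vertical line divides WT from LRP1 KO. Macrophage, leukocyte and mural markers are higher in every KO library than in any WT library, and endothelial markers are higher in KO 1 to KO 3.

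The composition of the libraries moved with the groups. In bulk samples, more cells of a type and more RNA per cell cannot be told apart. Endothelial markers were present but modest: their sum was 289 to 308 FPKM for WT and 829, 544, 635 and 297 FPKM for LRP1 KO. Fibroblast markers summed to 2560 to 3720 FPKM for WT and 2080 to 3300 FPKM for LRP1 KO. Mural markers summed to 675 to 841 FPKM for WT and 1050 to 1650 FPKM for LRP1 KO. Pecam1, the target of the selection, read 6.80 to 8.76 FPKM for WT and 36.3, 18.5, 26.2 and 6.72 FPKM for LRP1 KO. Of the endothelial list, 1 of 18 tested was called higher, of the mural list 5 of 9, of the fibroblast list 0 of 11 with 3 lower, and of the neutrophil list 1 of 1. In LRP1 KO library 4, where the endothelial sum was within the WT range, Ifit1 was the highest of the group, Ifit3 and Oas1a the second highest, and Oas2 and Oas3 the third of 4.

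Markers of macrophages, cells that readily express the members, were higher in LRP1 KO for 9 of 10 tested, and leukocyte markers for 6 of 7. Of these, 2 macrophage markers and 1 leukocyte marker passed the filter only through the LRP1 KO libraries, so that they had to differ. The macrophage sum was 42.1 to 84.0 FPKM for WT and 356, 543, 213 and 487 FPKM for LRP1 KO, with Lyz2 the most abundant marker. Of the 18 markers in the table, 6 were at or below 0.5 FPKM in every library, the Kupffer cell markers Clec4f, Timd4 and Vsig4 among them, while Marco read 0.0821 to 0.666 FPKM for WT and 7.84, 5.53, 0.636 and 11.8 FPKM for LRP1 KO. These 4 were named after their values were seen. In LRP1 KO library 3, which had the lowest macrophage sum of its group and one still above all WT libraries, Ifit3, Oas1a, Oas2 and Oas3 were the highest of the group and Ifit1 the second highest. LRP1 KO library 4, with a sum of 487 FPKM, was the highest for 6 of the 10 members, and library 2, with 543 FPKM, for 0. Whether the members follow the macrophage or the endothelial sum among these libraries was not tested. The macrophage score (the mean log2 level of the markers) did not overlap between the groups, at 0.89 to 1.28 for WT and 1.82 to 2.68 for LRP1 KO, so macrophage content and genotype cannot be told apart. With it as a covariate in limma, the log2 fold changes were 1.96 for Ifit1, 1.47 for Ifit3, 2.03 for Oas1a, 1.79 for Oas2 and 1.18 for Oas3, and the median SE over all genes rose from 0.088 to 0.208. Adjusted p-values were then 0.0553 to 0.102, and 0 members were called, while 5 had an unadjusted p under 0.05. With the endothelial score as the covariate all 5 kept their call. Ifit2, Oasl1 and Oasl2 were then at 0.40, 0.92 and 0.66, still not called (limma adjusted p = 0.286, 0.291 and 0.0507). Lymphocyte markers were at or below 0.5 FPKM throughout, with 5 of 10 listed at 0 everywhere, and Siglech, a marker of plasmacytoid dendritic cells, was listed at 0 in all libraries. Of the plasmacytoid dendritic cell list, 2 were tested and neither was called, and the summed level of the whole list was 3.22 to 3.76 FPKM for WT and 2.96 to 4.94 FPKM for LRP1 KO. The part of mural, fibroblast and other leukocyte RNA in the values of the members was not tested.

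The targeted gene and the library checks were as follows. Lrp1 read 113, 140, 103 and 124 FPKM for WT against 3.45, 5.20, 2.79 and 7.72 FPKM for LRP1 KO. In LRP1 KO library 4, at 7.72 FPKM for Lrp1, Pecam1 read 6.72 FPKM, beside 6.80 to 8.76 FPKM in WT. Fibroblast marker sums exceeded endothelial ones in every library, and in which cells Lrp1 was lost was not tested. Libraries had near-identical sums of 503571 to 504112 FPKM and correlations of 0.961 to 0.994. Y-linked genes were near 0 in WT library 4 and LRP1 KO library 2 and summed to 21.6 to 63.9 FPKM in the others, so the sexes were mixed within both groups.

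Upstream of the members, the ligands were almost unseen. Of 21 interferon genes in the table, 16 were listed at 0 in all libraries and none passed the filter. The highest value of the list was 0.454 FPKM, for Ifnz in a WT library, and Ifnb1, the interferon that most cells make first, was listed at 0 except for 0.103 FPKM in LRP1 KO library 3.

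None of the 5 receptor chains tested was called in either direction by limma at adjusted p under 0.05, though 2 had an unadjusted p under 0.05. Ifnar2, the ligand-binding chain, read 70.5, 88.6, 78.3 and 67.3 FPKM for WT beside 51.7, 61.3, 51.7 and 73.2 FPKM for LRP1 KO. LRP1 KO libraries 1 to 3 were below all WT libraries and library 4 was not, and its log2 fold change was -0.36 (SE 0.12, limma adjusted p = 0.0817), or -0.46 with a limma adjusted p of 0.0131 without that library. It was -0.09 with the endothelial score as a covariate and -0.97 with the macrophage score, and its adjusted p over all alternatives ran from 0.0131 to 0.868. Ifnar1, the signalling chain, had a log2 fold change of -0.19 (SE 0.08, limma adjusted p = 0.127). Ifnlr1, the chain for lambda interferons, was under the filter, with 0.984 to 1.24 FPKM for WT and 0.448 to 0.762 FPKM for LRP1 KO (exact permutation p = 0.0286, n = 4 each).

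Stat2 and Irf9, subunits of the transcription factor complex, rose by less than the called members. Stat2 read 16.2, 18.5, 19.2 and 17.3 FPKM for WT against 20.9, 28.0, 28.7 and 29.0 FPKM for LRP1 KO, without overlap. Its log2 fold change was 0.55 (SE 0.11, limma adjusted p = 0.0148), and that of Irf9 was 0.54 (SE 0.08, limma adjusted p = 0.00493). The kinase genes Jak1, Jak2 and Tyk2 were not called, with log2 fold changes between -0.03 and 0.08. Stat2 lost its call without LRP1 KO library 2 (limma adjusted p = 0.050045). With the macrophage score as a covariate both Stat2 and Irf9 lost theirs (limma adjusted p = 0.439 and 0.179).

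Among feedback inhibitors, 2 of 5 tested were higher. Usp18, which removes ISG15 from proteins and blocks JAK1 at IFNAR2, rose from 5.10 ± 0.769 to 27.3 ± 5.39 FPKM, a log2 fold change of 2.20 (SE 0.15, limma adjusted p = 0.000357). Ptpn6, a phosphatase best known in blood cells, had overlapping groups (log2 fold change 0.63, SE 0.18, limma adjusted p = 0.0493) and lost its call in 5 of 8 fits that left out a library.

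Of the nucleic acid sensors and their factors, 6 of 12 tested were higher and 0 lower. Zbp1, a sensor of Z-form nucleic acid, rose from 4.03 ± 0.959 to 18.6 ± 4.11 FPKM (log2 fold change 1.95, SE 0.18, limma adjusted p = 0.000593). Irf7, the factor that amplifies interferon transcription, rose from 12.2 ± 1.81 to 40.6 ± 8.96 FPKM (log2 fold change 1.63, SE 0.16, limma adjusted p = 0.000628), and Ifih1, a sensor of long double-stranded RNA, had a log2 fold change of 0.84 (SE 0.10, limma adjusted p = 0.00210). Zbp1, Irf7 and Ifih1 lost their calls with the macrophage score as a covariate (limma adjusted p = 0.0815, 0.0719 and 0.0849).

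Other interferon-stimulated antiviral genes were higher in 13 of 17 tested and lower in 1 (1 of the 13 passed the filter only through LRP1 KO), with a median log2 fold change of 0.53 against -0.01 over all genes tested. The median over the 8 tested members was 1.21. Ifi44 had the largest change of the list, 2.28 (SE 0.18, limma adjusted p = 0.000389). Isg15, a ubiquitin-like modifier, rose from 25.2 ± 4.49 to 107 ± 19.3 FPKM (log2 fold change 2.04, SE 0.15, limma adjusted p = 0.000357), and Rtp4 by 1.37 (SE 0.16, limma adjusted p = 0.00172). With the macrophage score as a covariate Ifi44 and Rtp4 lost their calls (limma adjusted p = 0.0539 and 0.102) and Isg15 kept its call (0.0430). The lower gene was Ifitm2, named after its value was seen, with a log2 fold change of -0.30 (limma adjusted p = 0.0475), a call lost in 7 of 8 fits that left out a library.

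**Figure D5:**
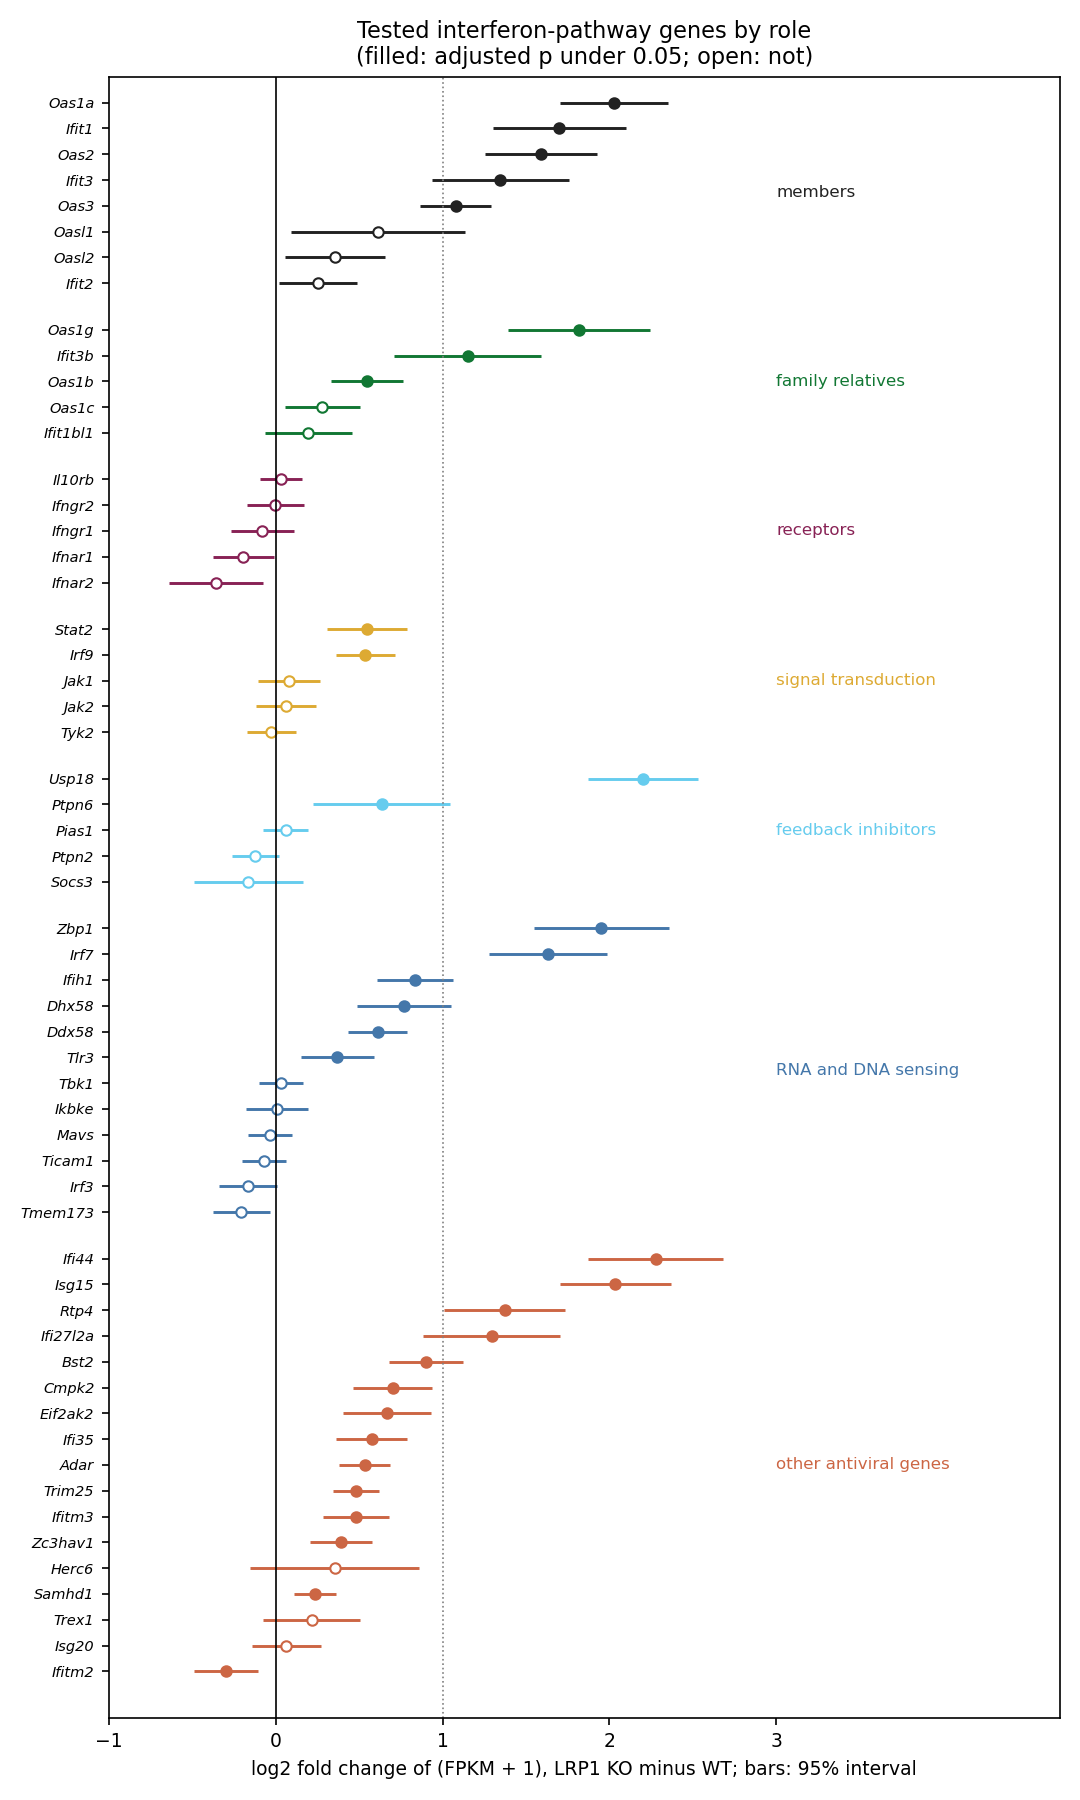
Log2 fold change of (FPKM + 1), LRP1 KO minus WT, for the members and other interferon-pathway genes tested, grouped by role. Points are estimates, bars are 95% intervals, filled points have an adjusted p under 0.05, and the dotted line is a 2-fold change. The 5 called members and several antiviral genes lie between 1 and 2.3, while receptors lie at or below 0.1.

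Genes beside the clusters were mostly not called. Of 24 tested genes that flank the 4 clusters, 1 was called higher and 0 lower by limma, where 6.27% of all genes tested were higher and 7.31% lower. Log2 fold changes of the flanking genes ran from -0.27 to 0.40 with a median of -0.04. The called one was Fas, a death receptor on the Ifit2 side of its cluster, at 0.32 (limma adjusted p = 0.0487), lost in 7 of 8 fits that left out a library. The Ifit cluster spans 99.3 kb and the Oas cluster 191 kb. Within them the relatives differed in the promoter letters as well: Ifit3b, Oas1g, Oas1c and Ifit1bl2 each held 2 matches to the core, Ifit1bl1 held 1, and Oas1f and Oas1h held none. Oas1c, at a log2 fold change of 0.28 (SE 0.10, limma adjusted p = 0.0880), held 2 matches and was not called, nor was Ifit1bl1 (0.20, SE 0.12, limma adjusted p = 0.263), and Ifit1bl2, under the filter, had a mean of 0.404 FPKM in both groups.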

How the data were processed

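RNA was extracted and libraries prepared with kits from Qiagen and Illumina. The submitters' processing notes name TopHat2, Cufflinks and mm10. The methods of the study describe another route (STAR, featureCounts and edgeR), which does not give the deposited values. These are 1 table of expression levels for 22520 genes, taken as FPKM made by the authors with Cufflinks. The unit was inferred, and the 8 columns have almost the same distribution (sorted values spread by a median of 0.575%), as after quantile normalization. Read depth is unknown, so no counting interval is given, and a global shift between groups cannot be seen.

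Log2(FPKM + 1) was fitted with limma 3.58.1 in R 4.3.3 (moderated test with variance trend, Benjamini-Hochberg adjustment) in the 4 WT and 4 LRP1 KO libraries, for 11389 genes at 1 FPKM or more in at least 4 libraries. A gene was called at an adjusted p under 0.05. Members under the filter were compared by exact permutation tests in Python 3.11.15. The fit was tested on simulated data. The members and lists were chosen with earlier results of these data known. Named outside the members were the interferon ligand, receptor and transduction genes, the 3 tested genes of largest absolute change in each other pathway list, the 3 most abundant genes of marker lists, the 5 genes most like the members, flanking genes and Lrp1; exceptions are stated. Gene positions are from GENCODE M21, and 50-base stretches were compared over its transcripts. Alternatives were another pseudocount, no filter, rescaling, no variance trend, a replicate block, marker scores as covariates and leaving out each library. Some genes of the lists are not reported here.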

Additional observations from a re-analysis of the deposited data

Results flagged for a closer look

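Values stood far from the other libraries of their group in 3 cases, by Dixon's 95% criterion on the gap to the nearest library as a share of the group's range, among 20 groups of 4 libraries examined; chance flags about 1 in 20. Oasl1 measured 5.95 FPKM in WT library 1, where the other WT libraries lay at 2.48 to 2.99 FPKM, a gap of 0.852 of the range. Oasl1 also measured 8.50 FPKM in LRP1 KO library 4, where the others lay at 4.60 to 5.21 FPKM (0.845 of the range). Mx1 measured 0.277 FPKM in WT library 2, where the others lay at 0.0910 to 0.0962 FPKM (0.972 of the range). None of the 5 members called in the comparison was among them.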

How the results depend on the processing

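Ifit1, Ifit3, Oas1a, Oas2 and Oas3 kept their direction in all 15 alternatives and their call in 14, the exception being the macrophage covariate. Their log2 fold changes in the 8 fits without 1 library ran from 1.60 to 1.84, 1.23 to 1.53, 1.97 to 2.17, 1.49 to 1.73 and 1.02 to 1.14. Over the 15 alternatives the adjusted p ranged from 0.000499 to 0.0672 for Ifit1, 0.000499 to 0.102 for Ifit3, 6.2e-05 to 0.0553 for Oas1a, 0.000186 to 0.0672 for Oas2 and 0.000446 to 0.0641 for Oas3. For Oasl1 the range was 0.0325 to 0.438 and for Oasl2 0.0244 to 0.630.

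The count of all genes called was 1547 (714 higher, 833 lower; rescaling gave 780 higher). It was 1013 with the replicate block, 61 with the macrophage covariate and 163 with the endothelial covariate, and 512 to 3021 without 1 library, the highest without LRP1 KO library 4. With a 2-fold change it was 61 and 95 with these covariates and 133 to 339 without 1 library. Members called were 0 with the macrophage covariate, also with a 2-fold change. Pathway genes other than members called higher were 27, and 2 with the macrophage covariate (Usp18 and Isg15). Those called lower were 2, and 1 with no filter, rescaling, the replicate block or no variance trend, 0 with either covariate, and 0 to 4 without 1 library. The cause of these losses was not tested.

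The replicate block changed no call of a member. The numbers do not pair the libraries: same-number deviations correlated at 0.158, 0.141, 0.340 and -0.312, and libraries did not all correlate best with their own number. Depth is unknown, so low values such as those of Mx1 have no stated precision.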
